A study of Mus musculus with 32 samples.

Results

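Chemokine transcripts were followed in mouse regulatory T cells (Tregs), which are CD4 T cells defined by Foxp3 that hold immune responses in check. The 9 genes Ccl1, Ccl3, Ccl4, Ccl5, Ccl20, Ccl22, Cxcl10, Cxcl16 and Xcl1 were taken by symbol, and 9 of 9 were found among the 54087 genes of every deposited table. All 9 passed a filter on low counts and were fitted with 14313 tested genes in all, although Ccl22 had fewer than 10 counts in 19 of 32 libraries and Cxcl16 in 26 of 32.

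GFP-positive Tregs had been purified from C57BL/6 mice aged 2.5 months that carry a Foxp3-IRES-GFP knock-in, so every group shares that allele and the reporter marks cells by Foxp3 itself. Resting Tregs gave 3 libraries. The control cultures were stimulated on plates coated with antibodies to CD3 and CD28, in medium with mouse IL-2 at 10 ng/ml, and were harvested at 18 h or 36 h, with 3 libraries per time. The other cultures had the same stimulation plus 1 agonist of a tumour necrosis factor receptor superfamily member: TNC-sc(mu)TNF80, also called STAR2, for TNFR2 at 12 ng/ml, the antibody 3H3 for 4-1BB at 10 µg/ml, the ligand TL1A for DR3 at 12 ng/ml, or the ligand OX40L for OX40 at 100 ng/ml. There were 3 libraries for each agonist and time, but only 2 for OX40L at 18 h. No cells were cultured without antibodies to CD3 and CD28, so that stimulation, IL-2 and time in culture cannot be told apart in a comparison with resting cells. The 4 doses were not matched, and no isotype control for 3H3 is named in the labels. The labels do not say whether libraries of a group came from separate mice or cultures. The p-values therefore measure only the spread between these samples, which may be technical.

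Chemokines are small secreted proteins that attract cells bearing the matching receptor. Ccl3 and Ccl5 bind Ccr1. Ccl20 binds Ccr6, Ccl1 binds Ccr8, Ccl22 binds Ccr4, Cxcl10 binds Cxcr3, Cxcl16 binds Cxcr6 and Xcl1 binds Xcr1, a receptor of cross-presenting dendritic cells. Tregs are best known in this network as responders that follow Ccl22, Ccl1, Ccl20 and Cxcl10 into tissues and tumours. Like other T cells they also transcribe chemokine genes after engagement of the T cell receptor, and receptors of the tumour necrosis factor family add signals that activate NF-kB.

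Total expected counts ranged from 11880270 to 38083925 per library. A non-coding transcript at the ribosomal RNA locus (RP23-81C12.3, chromosome 17, 39846958 to 39848788 on mm10) took 741 to 26030 CPM, counts scaled to a common library total, and 6 libraries held more than 10000 CPM of it. They were replicates 1 and 2 of the 18 h control, replicate 1 of the TNFR2 agonist at 18 h and at 36 h, replicate 3 of the DR3 agonist at 36 h and replicate 2 of the OX40 agonist at 36 h. Results were also computed without these 6 libraries, which leaves 1 control library at 18 h. In all groups 8 of 8 Treg markers, among them Foxp3, Il2ra and Ctla4, had counts, which does not by itself test the Treg label. Their summed level was 3806 to 4031 CPM in resting and 5086 to 6872 CPM in cultured libraries. Not every marker rose: at an adjusted p below 0.05, 5 were higher and 2 lower in the 18 h controls than at rest. In the 36 h controls 3 were higher and 5 lower. Of all genes tested, 80.9% and 84.5% passed that threshold in these comparisons. Summed B cell markers (8 of 8 with counts) were at 724 to 764.5 CPM in resting and 262 to 424 CPM in cultured libraries. Nearly all of that was Ighm, and without it the 7 other B cell markers summed to at most 30.0 CPM. Of 13 myeloid and dendritic markers, Cd74 alone carried most of the sum, and the others together stayed between 0.907 and 2.74 CPM in culture against 11.9 to 13.3 CPM at rest. Clec9a was at 0 counts in all 11 groups. Summed conventional helper T cell markers (7 of 7 with counts) were at 76.3 to 77.3 CPM in resting libraries, and 11 markers of NK, gamma-delta T and CD8 T cells at 47.6 to 52.8 CPM, with Ncr1 at 0 counts in all 11 groups.

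The promoters of Ccl1, Ccl20, Cxcl10 and Ccl3 are shown because the first 3 carry a match to the kappaB consensus, the letters bound by NF-kB, and the fourth, from the most strongly induced gene, carries none of the motifs searched. Each is the 250 bases before the annotated start, 5′ to 3′ on the gene's strand, from RefSeq on GRCm38.p6, the full name of the mm10 build. Capitals mark matches to the kappaB consensus, to the AP-1 motif TGANTCA or to the interferon-stimulated response element (ISRE), searched on both strands. In Cxcl10, at chr5:92348890-92349139 on the minus strand, the capitals are in order the interferon-stimulated response element, a kappaB match, a pair of overlapping kappaB matches and the AP-1 motif. Ccl1 lies at chr11:82179813-82180062 (minus), before its RefSeq start, with a pair of overlapping kappaB matches. The span of Ccl1 given further below is from another annotation and reaches 82305690, so this window lies inside that span. Ccl20 lies at chr1:83116516-83116765 (plus), with 1 kappaB match, and Ccl3 at chr11:83649379-83649628 (minus).
Cxcl10: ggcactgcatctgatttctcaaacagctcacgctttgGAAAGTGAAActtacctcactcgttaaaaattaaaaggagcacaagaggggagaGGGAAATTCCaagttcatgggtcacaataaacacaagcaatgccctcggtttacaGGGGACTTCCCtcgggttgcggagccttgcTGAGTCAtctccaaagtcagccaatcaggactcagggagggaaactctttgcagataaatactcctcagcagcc
Ccl1: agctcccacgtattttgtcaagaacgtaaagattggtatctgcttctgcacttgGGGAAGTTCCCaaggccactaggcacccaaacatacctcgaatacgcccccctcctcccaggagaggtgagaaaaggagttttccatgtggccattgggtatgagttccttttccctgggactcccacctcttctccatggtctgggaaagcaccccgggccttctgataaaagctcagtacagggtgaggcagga
Ccl20: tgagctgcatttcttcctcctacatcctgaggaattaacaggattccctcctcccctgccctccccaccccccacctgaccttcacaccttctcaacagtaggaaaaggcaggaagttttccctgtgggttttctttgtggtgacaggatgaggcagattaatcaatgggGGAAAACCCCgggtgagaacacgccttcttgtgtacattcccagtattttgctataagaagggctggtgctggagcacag
Ccl3: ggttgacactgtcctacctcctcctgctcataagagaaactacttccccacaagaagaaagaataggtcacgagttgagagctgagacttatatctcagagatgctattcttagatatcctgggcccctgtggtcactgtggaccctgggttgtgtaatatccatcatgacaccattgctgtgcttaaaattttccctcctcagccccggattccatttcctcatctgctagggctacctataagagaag
Promoters of 6 of the 9 genes were matched in RefSeq, and Ccl22 and Xcl1, the other two, held none of these motifs. Among all 32851 RefSeq promoters trimmed to the same window, 7.25% held a kappaB match, 6.75% the AP-1 motif and 2.98% the response element. The GAS motif TTCNNNGAA and the letters TATAAA were in none of the 6, against 7.02% and 12.4% of all promoters. A match is only a description of the letters.

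Whether stimulated Tregs transcribe chemokine genes was asked by setting the control cultures against resting cells. Ccl3, Ccl4, Ccl20, Ccl1, Cxcl16 and Xcl1 rose at both times, while Ccl5 and Cxcl10 fell. Ccl22 did not pass the test at either time. At 18 h 8 of 9 genes were called at an adjusted p below 0.05, against 80.9% of all genes tested, and at 36 h 8 of 9, against 84.5%. Most genes tested changed, so the number called says little about the chemokines. The median log2 fold change of the 9 was 1.67 at 18 h and 2.29 at 36 h, beside -0.01 over all genes at both times. The 9 were chosen with earlier results of these data known, so their median is no test of chemokine genes in general. Of 29 other chemokine genes 5 were tested, with medians of -0.67 at 18 h and -0.52 at 36 h. At each time 1 of these 5 was called higher and 2 lower.

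Ccl3 (ENSMUSG00000000982), the inflammatory chemokine MIP-1 alpha, had 0.138, 0.184 and 0.156 CPM in the 3 resting libraries, which is 2, 3 and 2 counts. The 18 h controls had 14.6, 15.6 and 15.3 CPM and the 36 h controls 51.6, 56.5 and 58.4 CPM. Every stimulated library lay far above every resting one, and every 36 h control above every 18 h control. The log2 fold change was 6.51 (SE 0.28, adjusted p 1.34e-22) at 18 h and 8.38 (SE 0.20, adjusted p 1.03e-30) at 36 h. Because the resting counts are so few, the ratio of summed counts at 18 h has a wide counting interval, 88.1 (95% exact interval 42.6 to 219.8). The rise from 18 h to 36 h was 1.87 (SE 0.08, adjusted p 5.79e-21), in a comparison in which 6 of 9 chemokine genes and 52.2% of all genes were called.

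Ccl4 (ENSMUSG00000018930; chromosome 11, 83662584 to 83664683, plus strand), or MIP-1 beta, is a neighbour of Ccl3 (83647844 to 83649355, minus strand). It had 0.552, 0.429 and 0.547 CPM at rest, 22.2, 24.1 and 23.5 CPM in the 18 h controls and 61.1, 58.2 and 71.6 CPM in the 36 h controls. The 3 groups did not overlap. Its log2 fold change was 5.51 (SE 0.22, adjusted p 9.08e-22) at 18 h and 6.96 (SE 0.18, adjusted p 2.14e-27) at 36 h. Ccl5 (ENSMUSG00000035042; chromosome 11, 83525778 to 83530518, minus strand), or RANTES, went the other way. It had 8.14, 7.72 and 8.21 CPM at rest, 2.13, 2.39 and 2.32 CPM at 18 h and 0.835, 0.493 and 0.904 CPM at 36 h. Each group lay wholly below the one before it, with log2 fold changes of -1.81 (SE 0.16, adjusted p 2.15e-14) and -3.41 (SE 0.19, adjusted p 4.64e-22) against resting.

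Ccl20 (ENSMUSG00000026166; chromosome 1, 83116766 to 83119167, plus strand) attracts Ccr6-bearing lymphocytes. It had 0, 5 and 0 counts in the resting libraries, 7.22, 7.16 and 7.07 CPM in the 18 h controls and 8.44, 7.75 and 7.804 CPM in the 36 h controls. A count of 0 in resting replicate 1 allows a level of up to 0.223 CPM (3 counts). The stimulated groups stood clear of resting cells and close to each other, and the log2 fold change was 5.89 (adjusted p 3.56e-22) at 18 h. The ratio of summed counts at that time was 58.2 (95% exact interval 24.7 to 180). Without resting replicate 2, the single resting library with counts, the fitted value rose to 10.14 and is no measure of size. From 18 h to 36 h Ccl20 did not pass the test at 0.16 (adjusted p 0.272), with an interval of -0.08 to 0.40.

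Ccl1 (ENSMUSG00000020702; chromosome 11, 82176657 to 82305690, minus strand), the ligand of the Treg receptor Ccr8, had 0.758, 0.858 and 1.33 CPM at rest, 2.07, 4.07 and 3.07 CPM at 18 h and 5.75, 6.63 and 6.98 CPM at 36 h. The groups did not overlap, and the 18 h controls were widely spread, with replicate 1 lowest and replicate 2 highest. Its log2 fold change was 1.67 (SE 0.24, adjusted p 2.52e-08) at 18 h and 2.74 (SE 0.21, adjusted p 6.52e-17) at 36 h. Ccl22 (ENSMUSG00000031779; chromosome 8, 94745590 to 94751699, plus strand), the ligand of Ccr4 made mainly by dendritic cells, stayed between 3 and 15 counts in the 9 libraries of these groups. Its log2 fold change was 0.10 (adjusted p 0.9097) at 18 h, with an interval of -1.35 to 1.54, and -0.56 (adjusted p 0.502) at 36 h, with an interval of -2.08 to 0.96. Changes within those intervals were not detectable at this depth.

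Cxcl10 (ENSMUSG00000034855; chromosome 5, 92346638 to 92348889, minus strand) is the interferon-induced ligand of Cxcr3. It had 19.1, 23.4 and 21.98 CPM at rest, 6.604, 4.99 and 6.18 CPM in the 18 h controls and 3.06, 2.599 and 2.51 CPM in the 36 h controls. Each group lay below the one before it, and the log2 fold change was -1.86 (SE 0.11, adjusted p 1.88e-20) at 18 h and -2.98 (SE 0.12, adjusted p 5.40e-27) at 36 h. The fall per transcript length was smaller. In TPM, the deposited level per transcript length, the mean went from 28.97 at rest to 11.6 at 18 h, and the isoform-weighted length that RSEM gave the gene was 1552 bases at rest and 1032 bases at 18 h. Art3, on the opposite strand, shares 133 exonic bases with Cxcl10, and its mean level was 3.68 CPM in resting cells and 0.344 CPM in 18 h controls. The library kit does not mark strand, so reads in the shared bases cannot be told apart. The summed B cell and myeloid markers given above were also lower in culture than at rest, and their part in the fall of Cxcl10 and Ccl5 was not tested. Other lists had higher sums in culture: the helper T cell markers were at 129 to 134 CPM in the 18 h and 210.5 to 230.2 CPM in the 36 h controls, and the NK, gamma-delta T and CD8 T cell markers at 52.9 to 55.6 and 80.9 to 86.3 CPM. Their part in the rise of Ccl3, Ccl4 and the other genes was not tested. Within the second of these lists Ncr1 alone was at 0 counts at rest. Klrb1c, Klrd1, Klrk1 and Ncr1 were at 0 in the 18 h controls, and Klrb1c and Ncr1 in the 36 h controls. In bulk libraries, fewer cells of a type and less RNA per cell cannot be told apart.

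Xcl1 (ENSMUSG00000026573; chromosome 1, 164931644 to 164935527, minus strand), lymphotactin, had 1.86, 1.47 and 1.095 CPM at rest, 3.53, 3.69 and 3.91 CPM in the 18 h controls and 2.504, 2.78 and 2.79 CPM in the 36 h controls. Both control groups lay above resting cells, at 1.31 (SE 0.21, adjusted p 1.50e-07) and 0.85 (SE 0.21, adjusted p 3.03e-04), and the 36 h controls lay below the 18 h controls at -0.46 (adjusted p 0.0184). That last call was lost without control replicate 3 at 18 h, without control replicate 1 at 36 h and without the 6 libraries rich in the ribosomal transcript, with adjusted p up to 0.0694. Cxcl16 (ENSMUSG00000018920; chromosome 11, 70453983 to 70459984, minus strand), a chemokine anchored in the membrane until ADAM10 sheds it, had 0, 1 and 1 counts at rest, 6, 4 and 9 at 18 h and 6, 4 and 7 at 36 h. All control libraries lay above the resting ones. Relative to resting cells, its log2 fold change was 2.71 (adjusted p 0.00177) at 18 h and 2.29 (adjusted p 0.00919) at 36 h, and the ratio of summed counts at 18 h was 6.84 (95% exact interval 1.65 to 60.5). Without resting replicate 1, which had no count, the 36 h call was lost (adjusted p 0.0552). The exact intervals of summed counts cover counting error only and leave out the spread between libraries. The libraries carry no molecular identifiers, so copies of 1 molecule could not be told from separate molecules. Even the counting error may therefore be larger than these exact intervals show.

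**Figure D1:**
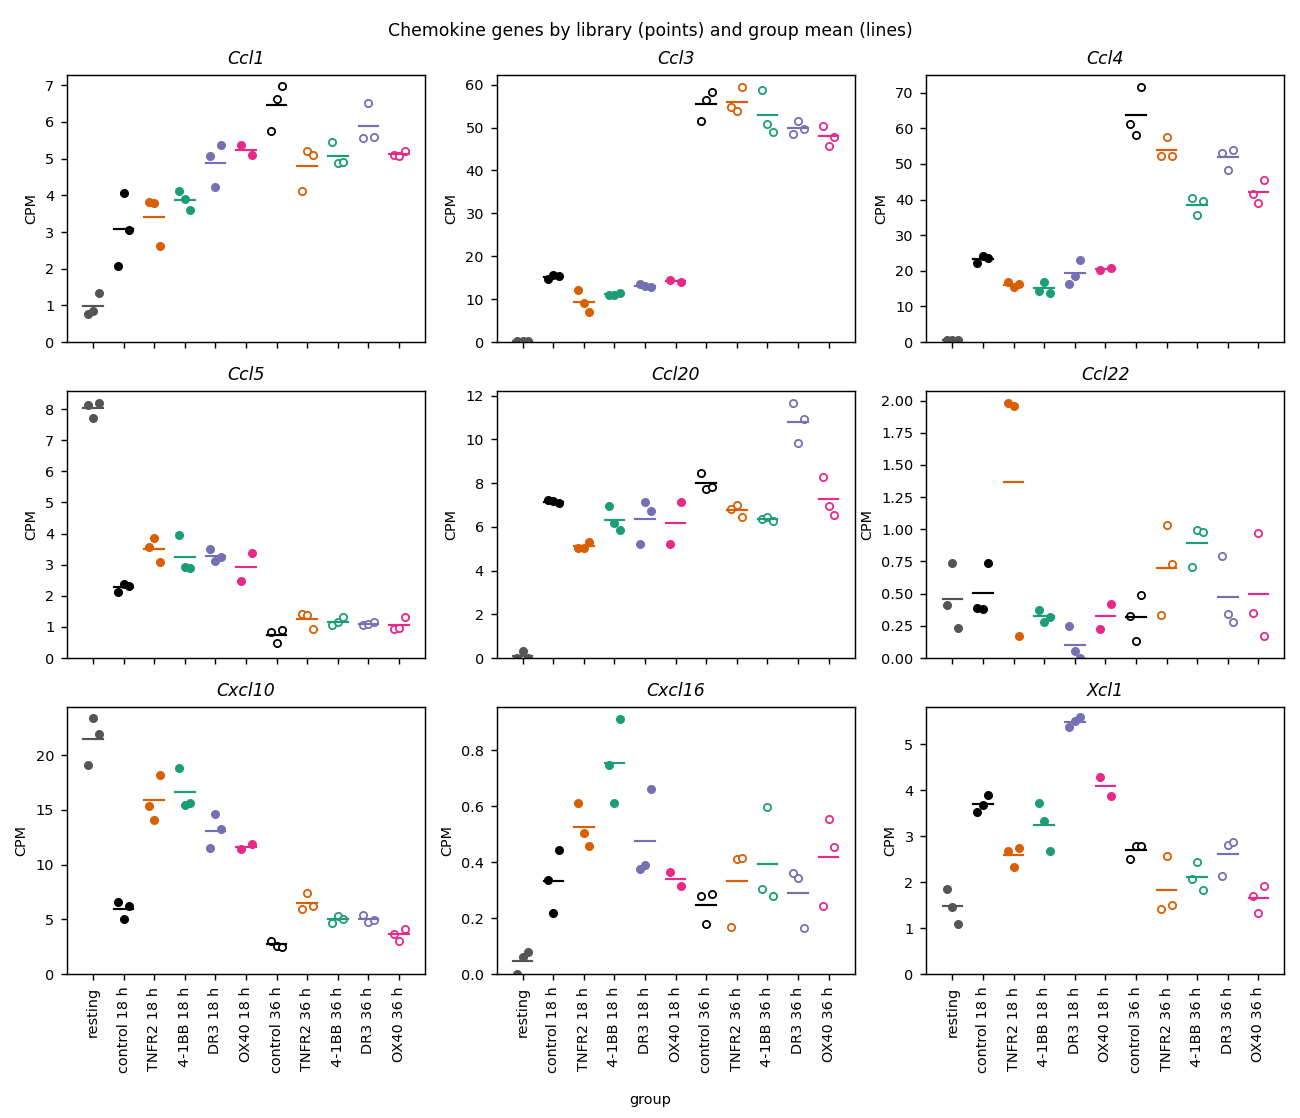
CPM of the 9 chemokine genes (y axis, a separate linear scale from 0 for each gene) in the 11 groups (x axis); points are libraries, filled for resting cells and 18 h and open for 36 h, and lines are group means. Ccl3 and Ccl4 are near 0 at rest and highest at 36 h, Ccl5 and Cxcl10 are highest at rest, and Ccl22 and Cxcl16 stay below 2 CPM and 1 CPM.

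Levels can be compared between genes only per transcript length, in TPM. The 9 genes summed to 86.8 ± 5.65 TPM (SD, n = 3) at rest, 199.8 ± 5.66 in the 18 h controls and 452 ± 32.3 in the 36 h controls. At rest Ccl5 made up 47.7% of the sum and Cxcl10 33.4%, with Ccl3 and Ccl4 together at 2.81%. In the controls Ccl3 and Ccl4 together made up 62.2% at 18 h and 83.6% at 36 h, where Ccl5 and Cxcl10 had led at rest. The order at 36 h was Ccl4 (220.3 ± 23.5 TPM), Ccl3 (157 ± 9.36), Ccl1 (31.6 ± 2.76), Ccl20 (20.2 ± 0.856), Xcl1 (13.1 ± 0.635), Cxcl10 (5.06 ± 0.459), Ccl5 (3.52 ± 1.05), Ccl22 (0.257 ± 0.145) and Cxcl16 (0.233 ± 0.112). The neighbours Ccl22 and Cxcl16 in that order did not differ beyond their spread. In the 18 h controls Ccl20 (18.7 ± 0.397), Xcl1 (18.2 ± 0.707) and Ccl1 (15.2 ± 4.602) stood next to each other within their spread.

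**Figure D2:**
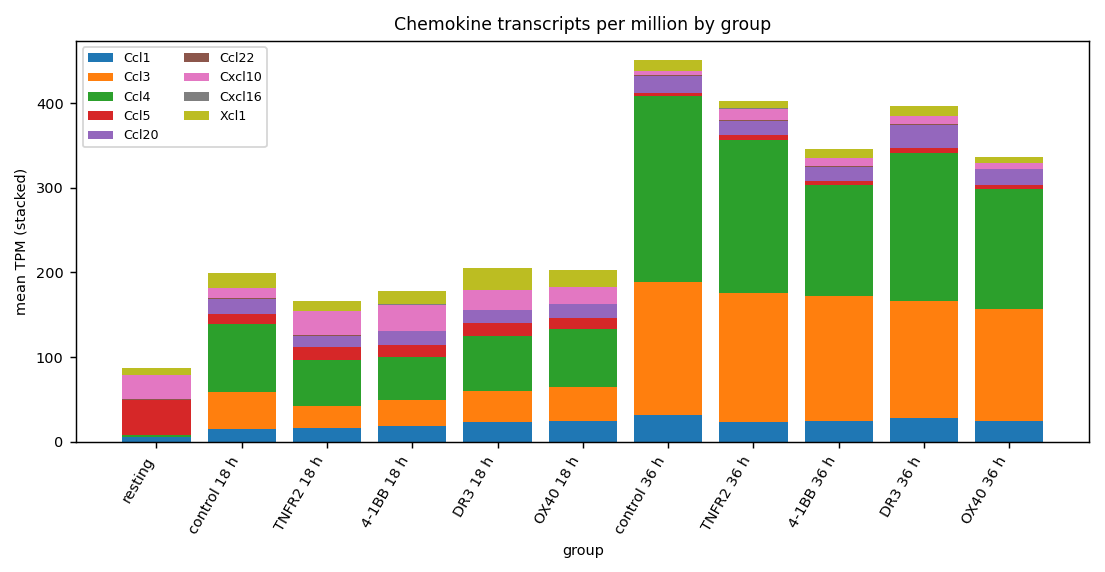
Mean TPM of the 9 chemokine genes, stacked (y axis, linear from 0), in the 11 groups (x axis); each colour is a gene. The stack is 86.8 TPM at rest and 452 TPM in the 36 h control, where Ccl4 and Ccl3 fill 83.6% of it.

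What the 4 agonists add to stimulation was asked by setting each against the control culture of the same time. The comparisons at one time share their control libraries, so their values stand side by side and are not independent. Across the 8 comparisons Cxcl10 was called in 7, always higher, and Ccl4 in 7, always lower. Ccl5 was called higher in 4, each lost under at least 1 alternative, and Ccl3 was called lower in 3. Ccl5 also lay above the control libraries without overlap in 8 of 8. How often genes in general did so was not counted. Ccl1, Ccl20 and Xcl1 were called higher with some agonists and lower with others, and Cxcl16 was called once. Ccl22 was called in 0 of 8 by edgeR, with an unadjusted p below 0.05 in 3, and in 1 by DESeq2, with the DR3 agonist at 18 h.

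At 18 h the number of the 9 genes called was 6 with the TNFR2 agonist, where 31.1% of all genes were called, and 5 with the 4-1BB agonist, where 25.8% were. It was 5 with the DR3 agonist, where 19.6% of all genes were called, and 2 with the OX40 agonist, where 19.0% were. At 36 h it was 5 with the TNFR2 agonist against 24.8% of all genes, 3 with the 4-1BB agonist against 22.5%, 3 with the DR3 agonist against 13.4% and 3 with the OX40 agonist against 13.3%. With the OX40 agonist at 18 h the share of chemokine genes is thus close to that of all genes. In the other comparisons it is above it with all libraries, over only 9 genes, and single libraries moved some of these counts. With the TNFR2 agonist at 36 h, 1 gene was called without TNFR2 replicate 1, 2 without control replicate 2 or 3, 3 without TNFR2 replicate 3, and 1 without the 6 libraries rich in the ribosomal transcript. With the DR3 agonist at 18 h, 2 were called without control replicate 1, 3 without control replicate 2 or 3 or DR3 replicate 1, and 2 without the 6 libraries. With the 4-1BB agonist at 18 h, 3 were called without control replicate 1, without 4-1BB replicate 1 or without the 6 libraries, and with the TNFR2 agonist at 18 h 3 without the 6 libraries. Summed helper T cell markers were at 107 to 151 CPM with the agonists at 18 h and 224 to 244 CPM at 36 h, and the NK, gamma-delta T and CD8 T cell markers at 66.2 to 87.7 and 69.3 to 98.4 CPM. All agonist libraries of 18 h thus lay above the 18 h controls in the second list, and its part in the agonist effects was not tested. Within that list Eomes, Nkg7 and Prf1 had the smallest p (edgeR) with every agonist at 18 h. Klrd1 and Ncr1 were at 0 counts in the 18 h controls and in every agonist group of 18 h, so they cannot show a change. Not every marker shared the higher sum, since Gzma had counts in those controls and was at 0 with the TNFR2, 4-1BB and DR3 agonists. The median log2 fold change of the 9 lay between -0.18 and 0.46, beside -0.0119 to 0.00244 over all genes. Of the 32 calls, 14 held under every alternative setting that gave a value and without any single library.

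Ccl4 was the chemokine most often lowered. At 18 h its libraries had 16.7, 15.5 and 16.2 CPM with the TNFR2 agonist, 14.4, 16.9 and 13.8 with the 4-1BB agonist, 16.3, 18.6 and 23.1 with the DR3 agonist and 20.2 and 20.8 with the OX40 agonist, against 22.2, 24.1 and 23.5 in the controls. All groups but the DR3 agonist lay wholly below the controls. On the log2 scale the change was -0.53 (SE 0.10, adjusted p 8.88e-05) with the TNFR2 agonist, -0.62 (SE 0.10, adjusted p 6.74e-06) with the 4-1BB agonist, -0.28 (SE 0.10, adjusted p 0.0426) with the DR3 agonist and -0.18 (adjusted p 0.248) with the OX40 agonist. The DR3 call was lost with DESeq2's size factors, with the ribosomal transcript as a covariate, without the 6 libraries rich in it, without any single control library and without DR3 replicate 1 or 2, with values of -0.41 to -0.17.

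At 36 h Ccl4 had 52.3, 57.5 and 52.3 CPM with the TNFR2 agonist, 40.3, 35.6 and 39.6 with the 4-1BB agonist, 53.2, 48.4 and 53.9 with the DR3 agonist and 41.5, 39.1 and 45.4 with the OX40 agonist, against 61.1, 58.2 and 71.6 in the controls. Every agonist library lay below every control. Its log2 change was -0.72 (SE 0.07, adjusted p 2.58e-09) with the 4-1BB agonist and -0.60 (SE 0.07, adjusted p 2.04e-07) with the OX40 agonist, and both held under every setting. It was -0.30 (adjusted p 0.004295) with the DR3 agonist, lost only without control replicate 3 (adjusted p 0.0526). The value of -0.24 (adjusted p 0.0156) with the TNFR2 agonist was lost without control replicate 3, TNFR2 replicate 1, TNFR2 replicate 3 or the 6 libraries, at -0.30 to -0.14.

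Ccl3 did not follow Ccl4 throughout. At 18 h it had 12.02, 9.04 and 6.92 CPM with the TNFR2 agonist, 11.04, 10.9 and 11.4 with the 4-1BB agonist, 13.6, 13.03 and 12.8 with the DR3 agonist and 14.4 and 14.02 with the OX40 agonist, against 14.6, 15.6 and 15.3 in the controls. All agonist libraries lay below the controls, and TNFR2 replicates 2 and 3 were the lowest of all. The log2 fold change was -0.68 (SE 0.11, adjusted p 5.43e-06) with the TNFR2 agonist and -0.45 (SE 0.10, adjusted p 0.00101) with the 4-1BB agonist. It was -0.21 (adjusted p 0.183) with the DR3 agonist and -0.09 (adjusted p 0.635) with the OX40 agonist.

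At 36 h Ccl3 had 54.7, 53.8 and 59.4 CPM with the TNFR2 agonist and 58.6, 50.9 and 48.96 with the 4-1BB agonist, overlapping the control values of 51.6, 56.5 and 58.4. The DR3 libraries had 48.5, 51.6 and 49.8 CPM and the OX40 libraries 50.3, 45.7 and 47.7 CPM. Against the controls, the log2 fold change was 0.01 (adjusted p 0.932) with the TNFR2 agonist and -0.07 (adjusted p 0.515) with the 4-1BB agonist. It was -0.15 (adjusted p 0.143) with the DR3 agonist and -0.20 (adjusted p 0.0442) with the OX40 agonist. The OX40 call was lost in 7 of 14 alternatives: DESeq2, the ribosomal covariate, leaving out the 6 libraries, and leaving out control replicate 2 or 3 or OX40 replicate 2 or 3, with values of -0.25 to -0.17. The TNFR2 effect on Ccl3 at 36 h differed from that at 18 h by 0.69 (SE 0.13, adjusted p 4.04e-04), the only chemokine gene called in that difference, for which 6.69% of all genes were called.

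The ratio of Ccl3 to Ccl4 in TPM was 0.718 ± 0.0686 (SD, n = 3) in the 36 h controls and 1.125 ± 0.0993 with the 4-1BB agonist at 36 h, where the lowest library, at 1.01, lay above the highest control, at 0.796. The 4-1BB agonist at 36 h was the only group in which Ccl3 led the order of mean TPM. The ratio was 0.937 ± 0.0673 with the OX40 agonist, 0.851 ± 0.0819 with the TNFR2 agonist and 0.794 ± 0.0714 with the DR3 agonist at 36 h. The ratios were not tested.

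Ccl5 lay above the controls in every agonist library. At 18 h it had 3.58, 3.85 and 3.09 CPM with the TNFR2 agonist, 3.95, 2.91 and 2.895 with the 4-1BB agonist, 3.503, 3.12 and 3.24 with the DR3 agonist and 2.46 and 3.36 with the OX40 agonist, against 2.13, 2.39 and 2.32 in the controls and 8.14, 7.72 and 8.21 at rest. The agonist groups thus stood between the controls and resting cells. On the log2 scale the change was 0.62 (SE 0.18, adjusted p 0.00523) with the TNFR2 agonist, 0.51 (adjusted p 0.0272) with the 4-1BB agonist, 0.52 (adjusted p 0.0339) with the DR3 agonist and 0.34 (adjusted p 0.2496) with the OX40 agonist. Each of these calls was lost under at least 1 alternative. The TNFR2 call was lost without the 6 libraries (adjusted p 0.195). The 4-1BB call ended there, with DESeq2, without the count filter, and without control replicate 1 or 3 or 4-1BB replicate 1, at 0.35 to 0.67. The DR3 call ended there, with DESeq2, without the count filter, and without any control library or DR3 replicate 1 or 3, at 0.48 to 0.62.

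At 36 h Ccl5 was low throughout, with 11 to 35 counts per library. Its log2 fold change was 0.73 (adjusted p 0.02797) with the TNFR2 agonist, 0.65 (adjusted p 0.05602) with the 4-1BB agonist, 0.55 (adjusted p 0.157) with the DR3 agonist and 0.48 (adjusted p 0.246) with the OX40 agonist. The TNFR2 call ended under 5 of 8 other settings (no count filter, the ribosomal covariate, leaving out the 6 libraries, fitting only the groups compared, and DESeq2) and without control replicate 2, TNFR2 replicate 1 or TNFR2 replicate 2, with values of 0.51 to 0.90. The difference among the 4 agonists was not called for Ccl5 at 18 h (adjusted p 0.707) or at 36 h (adjusted p 0.888).

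Ccl20 was lowered by the TNFR2 agonist at 18 h and raised by the DR3 agonist at 36 h. At 18 h it had 5.04, 5.05 and 5.32 CPM with the TNFR2 agonist, below the controls at 7.22, 7.16 and 7.07, with a log2 fold change of -0.48 (SE 0.14, adjusted p 0.00514). That call was lost without the 6 libraries (adjusted p 0.201). It was -0.18 (adjusted p 0.331), -0.17 (adjusted p 0.411) and -0.22 (adjusted p 0.308) with the 4-1BB, DR3 and OX40 agonists. At 36 h it had 11.6, 9.81 and 10.9 CPM with the DR3 agonist, against 8.44, 7.75 and 7.804 in the controls, 6.82, 7.01 and 6.44 with the TNFR2 agonist, 6.36, 6.44 and 6.25 with the 4-1BB agonist and 8.28, 6.95 and 6.52 with the OX40 agonist. The DR3 libraries of 36 h lay above every other library of the series.

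The DR3 effect on Ccl20 at 36 h was 0.44 (SE 0.11, adjusted p 0.00364), lost only without DR3 replicate 1 (adjusted p 0.05804). The 4-1BB effect was -0.33 (adjusted p 0.0413), and that call ended without any 1 of its 6 libraries and under 4 of 8 other settings, at -0.35 to -0.29. The TNFR2 and OX40 effects were -0.24 (adjusted p 0.148) and -0.10 (adjusted p 0.645). The agonists differed at 36 h (adjusted p 2.71e-06 in the joint test, in which 3 of 9 chemokine genes and 9.06% of all genes were called). Ccl20 was lower with the TNFR2 than with the DR3 agonist at -0.68 (SE 0.12, adjusted p 8.29e-05), where 1 of 9 chemokine genes and 3.56% of all genes were called. It was lower with the 4-1BB than with the DR3 agonist at -0.77 (SE 0.12, adjusted p 3.60e-06), where 2 of 9 and 5.43% were called. Both held under every setting. Against the OX40 agonist the DR3 level was higher by 0.55 (adjusted p 0.002102), where 2 of 9 and 1.70% were called, and this call was lost without the 6 libraries and without DR3 replicate 1 (adjusted p up to 0.123). The DR3 effect on Ccl20 was larger at 36 h than at 18 h by 0.61 (adjusted p 0.0436), where 2 of 9 and 2.31% were called. That difference was lost without 9 of the 12 libraries taken singly and under 4 of 8 other settings, at 0.49 to 0.72.

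Ccl1 was raised by the DR3 and OX40 agonists at 18 h. It had 5.07, 4.23 and 5.38 CPM with the DR3 agonist and 5.38 and 5.095 with the OX40 agonist, all above the controls at 2.07, 4.07 and 3.07. The libraries of the TNFR2 agonist, at 3.82, 3.79 and 2.63, and of the 4-1BB agonist, at 4.11, 3.898 and 3.59, overlapped them. Its log2 change was 0.77 (SE 0.17, adjusted p 8.33e-04) with the OX40 agonist and 0.66 (SE 0.17, adjusted p 0.00303) with the DR3 agonist, and the DR3 call was lost without control replicate 1, the lowest control (adjusted p 0.0621). It was 0.15 (adjusted p 0.546) with the TNFR2 agonist and 0.33 (adjusted p 0.152) with the 4-1BB agonist.

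At 36 h the Ccl1 libraries had 4.12, 5.21 and 5.09 CPM with the TNFR2 agonist, 5.45, 4.89 and 4.9 with the 4-1BB agonist, 5.56, 6.51 and 5.602 with the DR3 agonist and 5.11, 5.07 and 5.22 with the OX40 agonist, against 5.75, 6.63 and 6.98 in the controls. All but the DR3 agonist lay below the controls. The one call was the TNFR2 agonist at -0.42 (adjusted p 0.0187), lost with the ribosomal covariate, without the 6 libraries, and without control replicate 2, control replicate 3 or TNFR2 replicate 1, at -0.50 to -0.33. It was -0.35 (adjusted p 0.0559) with the 4-1BB agonist and -0.33 (adjusted p 0.09102) with the OX40 agonist. From 18 h to 36 h the OX40 effect on Ccl1 changed at -1.10 (SE 0.22, adjusted p 0.00116), which held under the 7 alternative settings that gave a value (DESeq2 gave no adjusted p) and without any single library. In that difference 1 of 9 chemokine genes was called, beside 3.48% of all genes. The DR3 effect changed at -0.80 (adjusted p 0.0289), and this was lost without 8 of 12 libraries taken singly, with the ribosomal covariate and without the 6 libraries, at -1.04 to -0.59. The changes of the TNFR2 effect, at -0.58 (adjusted p 0.119), and of the 4-1BB effect, at -0.68 (adjusted p 0.06104), had the same sign and were not called. For the 4-1BB agonist 0 of 9 chemokine genes were called in this difference by edgeR or DESeq2, 4 had an unadjusted p below 0.05 by edgeR, and 4.37% of all genes were called.

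Ccl22 had few counts. At 18 h it had 1.98, 1.96 and 0.172 CPM with the TNFR2 agonist, or 42, 31 and 3 counts, and 0.2502, 0.0557 and 0 CPM with the DR3 agonist, or 4, 1 and 0 counts, against 0.392, 0.3799 and 0.742 CPM in the controls. Replicates 1 and 2 of the TNFR2 agonist were high and replicate 3 low. A count of 0 in DR3 replicate 3 allows a level of up to 0.22 CPM. Against control the log2 fold change was 1.42 (adjusted p 0.0659) with the TNFR2 agonist and -2.21 (adjusted p 0.129) with the DR3 agonist. The joint test at 18 h called Ccl22 (adjusted p 0.00748), one of 6 chemokine genes called in it, beside 14.3% of all genes. The TNFR2 and DR3 agonists differed by 3.64 (adjusted p 0.00999), where 3 of 9 and 3.74% were called. Both calls were lost without TNFR2 replicate 1 and without TNFR2 replicate 2, and when only the groups compared were fitted. Over all alternatives the adjusted p reached 0.0878 in the joint test and 0.3302 in the pair. The joint call was lost without the 6 libraries as well, and the pair without DR3 replicate 2.

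Among the 9 genes, Cxcl10 had the largest called rise with an agonist against the control of the same time. At 18 h it had 15.4, 14.1 and 18.2 CPM with the TNFR2 agonist, 18.8, 15.5 and 15.6 with the 4-1BB agonist, 11.5, 14.6 and 13.3 with the DR3 agonist and 11.4 and 11.9 with the OX40 agonist, against 6.604, 4.99 and 6.18 in the controls. In CPM every agonist library lay above every control and below every resting library, of which the lowest had 19.1 CPM. In TPM the agonist libraries also lay above the controls, but those of the TNFR2 agonist (26.8, 23.9 and 31.4 TPM) and of the 4-1BB agonist (31.3, 26.8 and 33.3 TPM) overlapped the resting ones (24.9, 28.4 and 33.5 TPM). The log2 fold change was 1.43 (SE 0.11, adjusted p 1.28e-14) with the TNFR2 agonist, 1.49 (SE 0.11, adjusted p 1.55e-15) with the 4-1BB agonist, 1.15 (SE 0.12, adjusted p 1.14e-10) with the DR3 agonist and 0.97 (SE 0.13, adjusted p 7.83e-08) with the OX40 agonist. At 36 h the libraries had 5.92, 7.37 and 6.23 CPM, 4.69, 5.34 and 5.04 CPM, 5.37, 4.78 and 4.94 CPM and 3.68, 3.06 and 4.14 CPM in the same order of agonists, against 3.06, 2.599 and 2.51 in the controls. Only the lowest OX40 library reached down to the controls. Against the controls, the log2 fold change was 1.26 (SE 0.15, adjusted p 2.17e-09), 0.89 (adjusted p 1.01e-05), 0.90 (adjusted p 1.31e-05) and 0.43 (adjusted p 0.0632), so that the OX40 agonist at 36 h missed the threshold. The 7 calls held under every alternative setting and without any single library.

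The agonists differed in their level of Cxcl10 at both times, with an adjusted p of 0.00109 at 18 h and 2.79e-04 at 36 h in the joint test. At 18 h it was higher with the 4-1BB than with the OX40 agonist by 0.52 (SE 0.11, adjusted p 0.00171), where 2 of 9 chemokine genes and 4.26% of all genes were called. It was higher with the TNFR2 than with the OX40 agonist by 0.45 (adjusted p 0.00656), where 4 of 9 and 8.19% were called, and with the 4-1BB than with the DR3 agonist by 0.34 (adjusted p 0.0247), where 3 of 9 and 8.54% were called. The TNFR2 against OX40 call was lost without TNFR2 replicate 3 or either OX40 library (adjusted p up to 0.0516). The 4-1BB against DR3 call was lost with DESeq2, with the ribosomal covariate and without 4-1BB replicate 1 or DR3 replicate 1 or 3 (up to 0.217). At 36 h it was higher with the TNFR2 than with the OX40 agonist by 0.83 (SE 0.14, adjusted p 6.17e-05), where 2 of 9 and 4.02% were called. Beside these values, Art3 on the opposite strand had 0.344 CPM in the 18 h controls and 0.187 to 0.291 CPM with the agonists. Mean Cd74 was 31.2 CPM in the 18 h controls and 45.7 to 54.0 CPM with the agonists, and mean Ighm 302 and 323 to 408 CPM. The other 7 B cell markers summed to 6.02 to 6.08 CPM in the 18 h controls and 4.996 to 6.86 CPM with the agonists, and the myeloid markers without Cd74 to 1.63 to 2.74 and 1.00 to 1.92 CPM. At 36 h mean Cd74 was 45.9 CPM in the controls and 59.9 to 86.2 CPM with the agonists, and the myeloid markers without it summed to 1.07 to 1.43 and 0.907 to 2.17 CPM. The part of Cd74, Ighm and these lists in the rise of Cxcl10 was not tested.

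Cxcl16 was called once, with the 4-1BB agonist at 18 h. It had 14, 13 and 17 counts there, or 0.746, 0.611 and 0.911 CPM, against 0.336, 0.217 and 0.445 CPM in the controls, and the groups did not overlap. On the log2 scale the change of 1.15 (SE 0.41, adjusted p 0.0337) was lost under 4 of 7 other settings and without control replicate 1 or 2 or 4-1BB replicate 1 or 3, at 0.74 to 1.43. In the same comparison Zmynd15, which shares 552 exonic bases with Cxcl16 on the opposite strand, had 0.158 CPM in the controls and 0.558 CPM with the agonist, and reads of the shared bases cannot be told apart. In the other 7 comparisons the log2 fold change of Cxcl16 lay between 0.02 and 0.65 and was not called.

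Xcl1 had the smallest adjusted p of the 9 genes in the joint test of the 4 agonists at 18 h, 2.46e-05. It had 5.38, 5.51 and 5.599 CPM with the DR3 agonist and 4.29 and 3.89 with the OX40 agonist, 3.73, 3.34 and 2.68 with the 4-1BB agonist and 2.69, 2.34 and 2.74 with the TNFR2 agonist, against 3.53, 3.69 and 3.91 in the controls. The DR3 libraries lay above the controls and the TNFR2 libraries below them. Its log2 change was 0.56 (SE 0.16, adjusted p 0.00754) with the DR3 agonist and -0.51 (SE 0.18, adjusted p 0.0213) with the TNFR2 agonist. Both were lost without the 6 libraries, with adjusted p up to 0.206 and 0.125, and the TNFR2 call also without control replicate 3 or TNFR2 replicate 2. The difference itself, TNFR2 against DR3 at -1.08 (SE 0.17, adjusted p 2.07e-05), held under every setting, and so did 4-1BB against DR3 at -0.76 (SE 0.16, adjusted p 8.58e-04). TNFR2 against OX40 was -0.65 (adjusted p 0.0221), lost without the 6 libraries, when only the groups compared were fitted, and without TNFR2 replicate 1 or 2 or either OX40 library, at -0.71 to -0.58.

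At 36 h Xcl1 had 1.41, 2.58 and 1.51 CPM with the TNFR2 agonist, 2.07, 2.45 and 1.82 with the 4-1BB agonist, 2.14, 2.81 and 2.88 with the DR3 agonist and 1.695, 1.32 and 1.93 with the OX40 agonist, against 2.504, 2.78 and 2.79 in the controls. The 4-1BB and OX40 libraries lay below the controls, and the DR3 libraries spanned them. The log2 fold change was -0.69 (SE 0.19, adjusted p 0.00787) with the OX40 agonist, lost without the 6 libraries (adjusted p 0.0524). It was -0.55 (adjusted p 0.0287) with the TNFR2 agonist, a call lost with the ribosomal covariate, without the 6 libraries, in the fit of the groups compared, and without control replicate 2 or 3 or TNFR2 replicate 1 or 3, at -0.88 to -0.40. It was -0.35 (adjusted p 0.173) with the 4-1BB agonist and -0.08 (adjusted p 0.8404) with the DR3 agonist. An antisense transcript, Gm20743, shares 98 exonic bases with Xcl1.

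Ccl3 and Ccl4 also differed between agonists. At 18 h Ccl3 was lower with the TNFR2 agonist than with the OX40 agonist at -0.59 (SE 0.12, adjusted p 0.00136) and than with the DR3 agonist at -0.47 (adjusted p 0.0118). Both calls were lost when only the groups compared were fitted, and the DR3 one also without TNFR2 replicate 2 or 3 or DR3 replicate 1 or 2, at -0.73 to -0.30. Ccl4 was lower with the 4-1BB agonist than with the OX40 agonist at -0.44 (adjusted p 0.0137) and than with the DR3 agonist at -0.34 (adjusted p 0.0347). Leaving out 4-1BB replicate 1 or 3 ended both, either OX40 library ended the first, and DR3 replicate 2 or 3, the ribosomal covariate, the 6 libraries and the fit of the groups compared ended the other, at -0.54 to -0.39 and -0.45 to -0.21. Ccl1 was lower with the TNFR2 than with the OX40 agonist at -0.61 (adjusted p 0.0179), lost in the fit of the groups compared and without TNFR2 replicate 3 or either OX40 library, at -0.72 to -0.46.

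At 36 h Ccl4 was higher with the TNFR2 than with the 4-1BB agonist by 0.49 (SE 0.08, adjusted p 1.44e-04), where 1 of 9 chemokine genes and 3.70% of all genes were called. It was lower with the 4-1BB than with the DR3 agonist at -0.43 (SE 0.08, adjusted p 2.24e-04). Both held under every setting. It was higher with the TNFR2 than with the OX40 agonist by 0.36 (adjusted p 0.00319), lost without the 6 libraries (adjusted p 0.108), and with the DR3 than with the OX40 agonist by 0.30 (adjusted p 0.0261), lost there and without DR3 replicate 1 or 3 or OX40 replicate 1 or 2, at 0.24 to 0.36.

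In all, 6 pairs of agonists were compared at each time, at doses that were not matched. By edgeR none of the 9 genes, and by DESeq2 none of those for which it gave an adjusted p, was called between TNFR2 and 4-1BB at 18 h, where Ccl20 and Ccl22 had an unadjusted p below 0.05 by edgeR and 5.56% of all genes were called. The same held between DR3 and OX40 at 18 h, with Xcl1 below an unadjusted 0.05 and 4.12% called, and between 4-1BB and OX40 at 36 h, with Cxcl10 below it and 3.63% called. For Ccl20 the TNFR2 against 4-1BB difference at 18 h was -0.30 with an interval of -0.57 to -0.03, and for Cxcl10 the 4-1BB against OX40 difference at 36 h was 0.45 with an interval of 0.17 to 0.74. These intervals do not show that the agonists act alike. In the joint test at 18 h, Ccl1 was lost without TNFR2 replicate 3 or OX40 replicate 1 (adjusted p up to 0.07) and Ccl4 without OX40 replicate 2 (0.0538).

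The receptors of these chemokines were read beside them, from a list of 23 chemokine receptors of which 17 were tested. Against resting cells 7 of the 17 rose and 8 fell in the 18 h controls, where 80.9% of all genes were called, with a median log2 fold change of 0.62. In the 36 h controls 9 rose and 8 fell, where 84.5% were called, with a median of 0.40. The 18 h count is near the share of all genes. Ccr8, the receptor of Ccl1, rose from 30.6 ± 2.501 CPM (SD, n = 3) at rest to 154 ± 3.56 CPM in the 18 h controls, at 2.34 (adjusted p 1.62e-41). Ccr4, the receptor of Ccl22, rose from 38.1 ± 0.488 to 110.1 ± 3.52 CPM, at 1.53 (adjusted p 6.33e-32). Cxcr3, the receptor of Cxcl10, fell from 56.2 ± 3.46 to 24.6 ± 1.24 CPM, at -1.19 (adjusted p 1.12e-23). The fall of Cxcl10 and the rise of Ccl1 on stimulation thus stood beside a change of the same sign in their receptors.

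With the agonists, between 7 and 11 of the 17 receptors were called in each comparison with control, 3 to 6 higher and 3 to 7 lower. In these 8 comparisons 13.3% to 31.1% of all genes were called. Cxcr6, the receptor of Cxcl16, was lower in 8 of 8 comparisons, at -1.40 to -0.70, and Cxcr3 in 7 of 8, at -0.45 to -0.12. Cxcl10 and its receptor thus had opposite signs in every comparison. Ccr4 was called higher in 6 of 8 and Ccr6, the receptor of Ccl20, in 5 of 8. Ccr8 was lower in 5 and higher in 2, and Ccr7, a lymph node homing receptor with none of the 9 ligands, was higher in 8 of 8. Xcr1 was called once, and Ccr1 in 0 of 8 by edgeR, with an unadjusted p below 0.05 in 3.

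**Figure D3:**
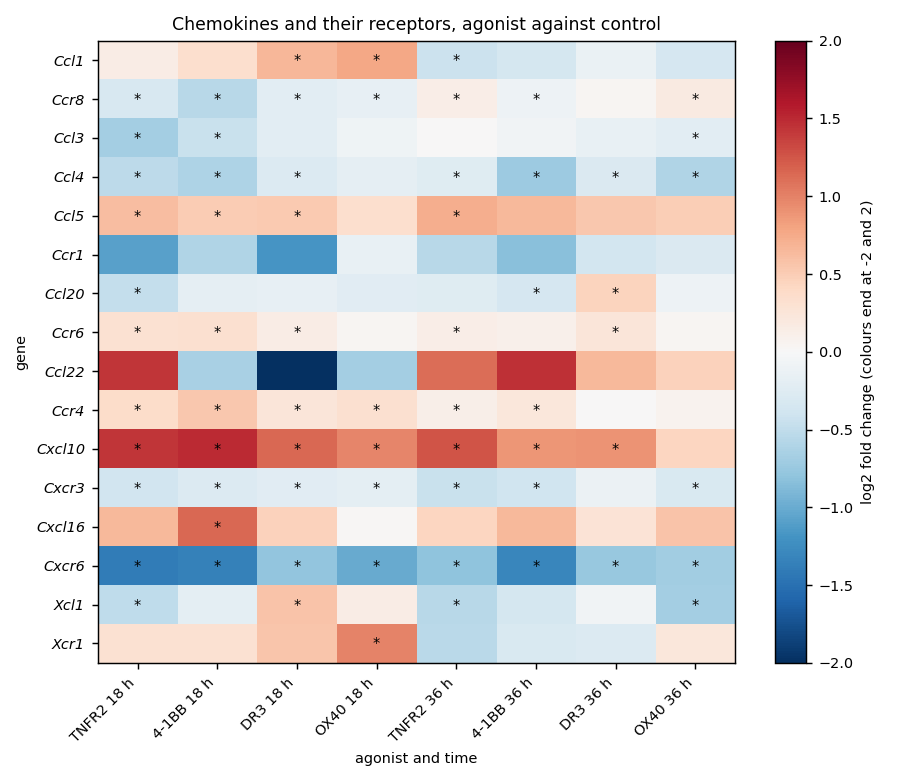
Log2 fold change (colour, ending at -2 and 2) of the 9 chemokine genes and of receptors named in the text (vertical axis) with each agonist against the control of the same time (horizontal axis); a star marks an adjusted p below 0.05. Cxcl10 and Cxcr3 have opposite signs in all 8 columns, and Cxcr6 is lower in all 8 columns.

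Of 29 other chemokine genes, 5 were tested (Ccl9, Ccl25, Ccl27a, Cx3cl1 and Cxcl2). No comparison of an agonist with control called more than 1 of them, beside 13.3% to 31.1% of all genes. Genes that drive chemokine transcription were read from a list of 14, all tested, which also holds the sheddases Adam10 and Adam17. Each comparison of an agonist with control called 8 to 11 of the 14, 4 to 6 higher and 3 to 5 lower, beside the same shares of all genes. The NF-kB subunit genes Nfkb2, at 0.62 to 1.03, and Relb, at 0.24 to 0.66, were higher in 8 of 8. Tnf was lower in 8 of 8, at -0.49 to -0.31, and Ifng, the interferon that induces Cxcl10, was called in 0 of 8 by edgeR, and in 0 at an unadjusted p below 0.05 (log2 fold change -0.17 to 0.22). Adam10, the sheddase of Cxcl16, was lower in 7 of 8.

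Among the genes tested, leaving out provisional Gm and Rik names, the pattern over the 11 group means (log2 CPM, Pearson's r) most like that of each chemokine gene is given as a description, since the points share libraries and one large step from rest to culture. For Ccl3 the closest were Tfrc (r = 0.998), Cenpk (r = 0.998) and Oxsr1 (r = 0.997). For Ccl4 they were Rlim (r = 0.996), Pdcd1lg2 (r = 0.996) and Sc5d (r = 0.996), for Ccl5 Med15 (r = 0.994), Ring1 (r = 0.993) and Ecel1 (r = 0.992) and for Ccl20 Sde2 (r = 0.996), Sept11 (r = 0.995) and Dpy19l1 (r = 0.994). For Cxcl10 they were Csad (r = 0.991), Ifngr2 (r = 0.983) and Fam53b (r = 0.981), and for Xcl1 Tnfrsf12a (r = 0.958), Phex (r = 0.935) and Bet1 (r = 0.927). For Ccl1 they were Mdrl (r = 0.985), Alg10b (r = 0.98) and Kif5b (r = 0.977), for Cxcl16 RP24-127D13.5 (r = 0.973), Tle6 (r = 0.965) and Mvk (r = 0.958) and for the sparsely counted Ccl22 Zfp9 (r = 0.87), RP24-123H11.2 (r = 0.83) and RP23-477C13.3 (r = 0.776). Within the 9 genes, Ccl3 and Ccl4 had r = 0.991, Ccl5 and Cxcl10 0.943, and Ccl3 and Ccl5 -0.916.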

How the data were processed

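Messenger RNA of purified mouse Tregs was sequenced as 32 libraries in 11 groups, from cDNA made with the SMART-Seq v4 kit, which does not mark strand. The authors deposited RSEM gene tables with expected counts and TPM, both used here. Per the submitters' processing notes the tools were FastQC, Trimmomatic, STAR 2.5.3a and RSEM 1.2.28 on mm10. Not given in the sources used here were the annotation release and the strandedness of counting. The deposited transcript length per gene was read for the 9 chemokine genes and is printed for Cxcl10.

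Expected counts were rounded to whole numbers (1.17% were not whole). Genes were filtered by edgeR's filterByExpr over the 11 groups, leaving 14313 of 54087, scaled by TMM and fitted with edgeR 4.0.16 (robust quasi-likelihood, R 4.3.3, limma 3.58.1) to all 32 libraries with 1 mean per group. Adjusted p-values are Benjamini-Hochberg over all genes tested in each of 29 comparisons, with a threshold of 0.05. CPM used TMM-scaled totals. Intervals of log2 fold changes are normal 95% intervals from the SE, which is the change divided by the root of F. Count ratios have exact 95% intervals, and a count of 0 is given its limit of 3 counts. Library totals ranged from 11880270 to 38083925. The edgeR test was run on simulated counts with known changes, for the TNFR2 and the OX40 agonist at 18 h. Alternatives were DESeq2 1.42.0, its size factors, no filter, a stricter filter, a replicate block, only the groups compared, the ribosomal transcript as covariate, leaving out the 6 libraries rich in it, and leaving out each library.

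The named genes are the 9 chemokines in every comparison, the receptors that bind them, and up to 4 genes with the smallest p from each other list; overlapping genes, markers and the genes Adam10, Ifng and Tnf are named beside them. Some listed genes are not reported here by name and count only in their list's totals. The members and lists were chosen with earlier results of these data known. No pairing of samples by replicate number was seen: 0 of 55 pairs of groups had every same-numbered correlation above 0.1 (-0.167 to 0.161). With so few libraries per group, this check could miss a weak pairing.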

Additional observations from a re-analysis of the deposited data

Results flagged for a closer look

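In 4 cases the effect of an agonist on a chemokine gene differed between 18 h and 36 h in the test of that difference (edgeR, Benjamini-Hochberg over all genes). For Ccl3 the effect of the TNFR2 agonist was higher at 36 h by 0.69 on the log2 scale (adjusted p 4.04e-04), from -0.68 at 18 h to 0.01 at 36 h. For Ccl1 the effect of the OX40 agonist was lower at 36 h, with a difference of -1.10 (adjusted p 0.00116), from 0.77 to -0.33. For Ccl1 with the DR3 agonist the difference was -0.80 (adjusted p 0.0289), from 0.66 to -0.14. For Ccl20 with the DR3 agonist it was 0.61 (adjusted p 0.0436), from -0.17 to 0.44. The first held under every alternative tried. The second held under every alternative that gave a value, since DESeq2 gave no adjusted p for it. The differences with the DR3 agonist were lost under some alternatives, at -1.04 to -0.59 for Ccl1 and 0.49 to 0.72 for Ccl20.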

How the results depend on the processing

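Of 22 calls between control cultures and resting cells or between times, 20 held under every alternative that gave a value, of 32 between agonist and control 14, of 4 differences between times 2, of 9 joint calls 6 and of 20 calls between pairs of agonists 8. The cause was not tested. DESeq2 gave no adjusted p for some low genes, among them Ccl1 in the OX40 difference between times and Ccl22 in most pairs of agonists. Counts of the 9 genes called changed as follows. Without the 6 libraries rich in the ribosomal transcript, which leaves 1 control at 18 h assumed to vary like the other groups, 3 were called with the TNFR2, 3 with the 4-1BB and 2 with the DR3 agonist at 18 h, 1 with the TNFR2 agonist at 36 h, 0 in the DR3 difference between times, 1 for TNFR2 against 4-1BB at 18 h, 1 for TNFR2 against OX40 at 36 h and 0 for DR3 against OX40 at 36 h. With that transcript as covariate they were 2 with the TNFR2 agonist at 36 h, 0 in the DR3 difference and 1 for 4-1BB against DR3 at 18 h. Without a count filter they were 3 and 5 with the 4-1BB agonist at 18 h and 36 h, 3 and 2 in the 4-1BB and OX40 differences, and 1 each for TNFR2 against 4-1BB at 18 h and 4-1BB against OX40 at 36 h. With only the groups compared they were 3 and 5 with the TNFR2 and 4-1BB agonists at 36 h, 4 and 2 in the 4-1BB and OX40 differences, 1 and 2 for TNFR2 against DR3 and OX40 at 18 h, 2 for TNFR2 against DR3 and 1 for 4-1BB against OX40 at 36 h. DESeq2 gave 3 with the 4-1BB agonist at 18 h and 1 in the DR3 difference, and its size factors gave 2 in the OX40 difference. The stricter filter, which dropped Ccl22 and Cxcl16, gave 3 there. With the replicate number as a block, 1 was called in the DR3 and 2 in the OX40 difference. Over all tests of the 9 genes the block ended 2 calls and added 2. No pairing of samples by these numbers was seen.

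Directions reversed only for values that were not called. Over all tests of the 9 genes this happened 8 times with the covariate, 13 times without the 6 libraries, 1 time without a filter and 76 times with 1 library left out. Against rest or control these were Ccl22 at 18 h against rest (-0.0572 with the covariate), Cxcl16 with the OX40 agonist at 18 h (-0.38) and Ccl22 with it at 36 h (-0.16) without the 6 libraries, and Ccl3 with the TNFR2 agonist at 36 h (-0.00084 without a filter). Leaving out 1 library at a time gave Ccl22 at 18 h against rest -0.31 to 0.63, Ccl1 with the TNFR2 agonist at 18 h -0.0522 to 0.40, Cxcl16 with the OX40 agonist at 18 h -0.20 to 0.30, Ccl3 with the TNFR2 agonist at 36 h -0.0375 to 0.0504, Ccl22 with the DR3 agonist at 36 h -0.0382 to 1.14, Xcl1 with it -0.15 to 0.0781 and Ccl22 with the OX40 agonist at 36 h -0.16 to 0.95. Genes called then ranged from 3 to 5 and 2 to 4 with the 4-1BB and DR3 agonists at 18 h and 1 to 5 with the TNFR2 agonist at 36 h. In the differences between times they ranged from 1 to 2 for TNFR2, 0 to 1 for 4-1BB, 0 to 2 for DR3 and 1 to 2 for OX40. Between pairs at 18 h they were 0 to 1 for TNFR2 against 4-1BB, 1 to 3 for TNFR2 against DR3 or OX40 and for 4-1BB against DR3, and 1 to 2 for 4-1BB against OX40, and at 36 h 1 to 2 for TNFR2 against DR3 and 0 to 2 for DR3 against OX40.

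With the covariate, the number of all genes called went from 958 to 512 (TNFR2 difference between times), 498 to 244 (OX40 difference between times). Without the 6 libraries, it went from 4456 to 1890 (TNFR2 agonist at 18 h), 3690 to 1888 (4-1BB agonist at 18 h), 2806 to 1175 (DR3 agonist at 18 h), 2724 to 1205 (OX40 agonist at 18 h), 958 to 253 (TNFR2 difference between times), 626 to 240 (4-1BB difference between times), 331 to 63 (DR3 difference between times), 498 to 90 (OX40 difference between times), 1297 to 688 (joint test at 36 h), 796 to 285 (TNFR2 against 4-1BB at 18 h), 536 to 320 (TNFR2 against DR3 at 18 h), 1172 to 528 (TNFR2 against OX40 at 18 h), 590 to 344 (DR3 against OX40 at 18 h), 530 to 231 (TNFR2 against 4-1BB at 36 h), 509 to 190 (TNFR2 against DR3 at 36 h), 575 to 165 (TNFR2 against OX40 at 36 h), 777 to 514 (4-1BB against DR3 at 36 h), 520 to 332 (4-1BB against OX40 at 36 h), 244 to 83 (DR3 against OX40 at 36 h). With only the groups compared, it went from 2045 to 1139 (joint test at 18 h), 536 to 184 (TNFR2 against DR3 at 18 h), 1172 to 312 (TNFR2 against OX40 at 18 h), 590 to 50 (DR3 against OX40 at 18 h), 530 to 973 (TNFR2 against 4-1BB at 36 h), 509 to 873 (TNFR2 against DR3 at 36 h), 777 to 1216 (4-1BB against DR3 at 36 h). Leaving out 1 library moved it by over 1.5 times in these comparisons, to 196 to 207 (DR3 difference between times), 382 to 433 (TNFR2 against 4-1BB at 18 h), 344 to 710 (TNFR2 against OX40 at 18 h), 294 to 862 (TNFR2 against DR3 at 18 h), 64 to 1189 (DR3 against OX40 at 18 h), 162 to 941 (OX40 difference between times), 280 to 958 (4-1BB against OX40 at 18 h), 1511 (OX40 agonist at 18 h), 1214 to 1224 (DR3 agonist at 36 h), 226 to 330 (TNFR2 against 4-1BB at 36 h), 262 to 377 (TNFR2 against OX40 at 36 h), 265 to 337 (TNFR2 against DR3 at 36 h), 127 to 158 (DR3 against OX40 at 36 h), 339 (4-1BB against OX40 at 36 h). No setting moved the median of all genes by over 0.1. Precision is limited by counts below 10 in 19 libraries for Ccl22 and 26 for Cxcl16.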
